A study of Homo sapiens with 20 samples.

Results

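Desert regions are open chromatin intervals far from any protein-coding gene end. They were collected from 10 ATAC-seq peak lists of LOVO and RKO, established human colon adenocarcinoma cell lines. An interval was taken when its centre, on chromosomes 1 to 22, lay more than 100 kb from the nearest annotated end of a protein-coding gene, and overlapping intervals of different lists were joined. Of 285745 autosomal intervals in the 10 lists, 33430 met the rule, and they joined into 11466 regions with a median width of 292 bp. Each of these 11466 regions is accounted for, since no filter on score or width was applied.

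The lists stand for 4 groups in each line: shMETTL3 cells given olaparib, shControl cells given olaparib, untreated shMETTL3 cells and untreated shControl cells. shMETTL3 is a short hairpin RNA against METTL3, the catalytic subunit of the RNA N6-methyladenosine writer, shControl is the control hairpin, and olaparib inhibits poly(ADP-ribose) polymerase. No dose, time or clone is given in the sources used here, every group carries a hairpin, and the level of METTL3 cannot be checked from peak lists. The labels name 20 samples, 4 untreated shControl samples per line (2 of them from a batch named as the second) and 2 in every other group, but each list is named for a group, so no replicate values exist and no test between groups was made. Every interval name of the 6 scored lists carries replicate 1, so these lists may hold the peaks of 1 sample; the merged lists name no replicate. Untreated shControl has a pair of lists in each line, one with a score per interval, whose meaning the files do not state (scored), and one without (merged), and the difference between them, which may mix form, sample and batch, is the only measure of spread. Depth is unknown, a shallower library gives fewer peaks, and fewer open cells cannot be told apart from less open DNA per cell.

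Gene deserts are long stretches of DNA without protein-coding genes. Open DNA within them is often a distant enhancer, an insulator bound by CTCF, or the promoter of a non-coding RNA, and deserts beside developmental genes such as SOX9 and MYC are known for enhancers that act over long distances. Long introns meet the same distance rule, because only the ends of a gene count. Desert DNA is also rich in repeats such as LINE1, the retroelement named in the title of the study; repeats were not analysed here.

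The label of gene desert held for part of the members only. By RefSeq, 3832 regions (33.4%) lay inside a protein-coding gene, far from both of its ends. Another 2615 (22.8%) lay inside some other annotated gene, and 5019 (43.8%) in no annotated gene of any kind. Desert DNA made up 1174.91 Mb, or 40.96%, of the 2868.67 Mb between the outermost gene ends, and it held 4.58 to 15.6% of the intervals of a list. Unsequenced gaps of the assembly were not subtracted from these lengths. In all, 1393 regions lay more than 500 kb from a gene end, 277 more than 1 Mb and 18 more than 2 Mb.

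Promoters of long non-coding RNAs (lncRNAs) are the desert regions for which sequence can be shown. The 5 promoters printed here were chosen because a region overlaps them in all 10 lists (LINC-PINT, MIR4458HG, LARRPM), in all 5 LOVO lists and no RKO list (MANCR), or in all 5 RKO lists and no LOVO list (LINC00460). Each runs from 250 bases before to 50 bases after the transcription start, 5′ to 3′ on the strand of the gene (RefSeq, GRCh38.p14). They lie at chr7:130913261-130913560 (minus strand), chr5:8457437-8457736 (plus), chr6:27020257-27020556 (minus), chr10:4678021-4678320 (minus) and chr13:106376314-106376613 (plus). Capitals mark matches, on either strand, to the GC box (GGGCGG), the CCAAT box, the AP-1 site (TGANTCA), the core of the ETS site (CCGGAA), the CRE (TGACGTCA) or the E-box (CACGTG). Overlapping matches run together in 1 capital stretch.
LINC-PINT: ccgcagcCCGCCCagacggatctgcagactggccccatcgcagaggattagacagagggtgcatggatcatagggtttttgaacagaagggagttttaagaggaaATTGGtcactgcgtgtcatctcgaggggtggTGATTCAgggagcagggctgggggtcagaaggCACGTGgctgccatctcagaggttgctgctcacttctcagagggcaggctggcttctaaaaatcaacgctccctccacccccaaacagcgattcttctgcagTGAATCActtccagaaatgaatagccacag
MIR4458HG: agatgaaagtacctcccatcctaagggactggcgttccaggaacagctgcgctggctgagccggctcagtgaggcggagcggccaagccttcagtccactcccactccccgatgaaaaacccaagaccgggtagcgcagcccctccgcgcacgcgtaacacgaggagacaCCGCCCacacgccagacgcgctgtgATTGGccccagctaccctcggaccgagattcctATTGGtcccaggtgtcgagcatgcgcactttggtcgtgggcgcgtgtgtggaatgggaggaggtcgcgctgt
LARRPM: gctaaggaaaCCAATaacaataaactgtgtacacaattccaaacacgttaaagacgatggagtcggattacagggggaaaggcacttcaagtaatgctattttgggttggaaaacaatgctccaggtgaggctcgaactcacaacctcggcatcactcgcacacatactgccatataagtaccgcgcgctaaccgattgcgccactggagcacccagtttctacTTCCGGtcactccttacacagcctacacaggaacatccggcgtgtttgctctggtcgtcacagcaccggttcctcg
MANCR: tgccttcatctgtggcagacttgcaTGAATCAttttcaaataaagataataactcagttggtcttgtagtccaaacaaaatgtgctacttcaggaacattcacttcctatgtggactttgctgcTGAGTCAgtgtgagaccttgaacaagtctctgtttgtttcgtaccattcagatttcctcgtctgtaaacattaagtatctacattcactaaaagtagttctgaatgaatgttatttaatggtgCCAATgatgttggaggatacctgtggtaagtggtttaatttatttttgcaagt
LINC00460: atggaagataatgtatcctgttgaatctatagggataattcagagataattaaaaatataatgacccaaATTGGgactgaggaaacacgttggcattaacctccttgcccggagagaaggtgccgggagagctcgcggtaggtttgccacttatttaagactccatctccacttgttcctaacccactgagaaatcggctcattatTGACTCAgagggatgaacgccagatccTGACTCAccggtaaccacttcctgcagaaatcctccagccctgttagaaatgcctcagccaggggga

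The LINC-PINT promoter is an internal one, since the annotated gene extends beyond it on both sides, and it lies back to back with that of LINC00513. A region of 736 bp spans both starts. Its intervals were 406 to 736 bp wide in the 10 lists, the narrowest in untreated RKO shMETTL3 and the widest in the merged LOVO shControl list. At MIR4458HG, the host gene of miR-4458, which lies 557 kb from the nearest gene end, the intervals were 317 to 789 bp wide. At LARRPM, whose promoter overlaps the transfer RNA gene TRI-TAT2-2, the interval was 165 bp wide in untreated RKO shMETTL3, against 648 bp in the merged RKO shControl list. At MANCR the LOVO intervals measured 225 bp in shMETTL3 with olaparib, 655 bp in shControl with olaparib, 372 bp in untreated shMETTL3, and 184 and 1295 bp in the scored and merged untreated shControl lists. At LINC00460 the RKO intervals measured 759, 764, 315, 660 and 913 bp in the same order of lists. At the 2 promoters found in 1 line, the merged control interval was thus the widest of the line.

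Among mature microRNAs, 14 of the 195 hairpins in desert DNA had a region within 1 kb. The 5 printed here span the patterns of lists that hold them, with the seed (bases 2 to 8) in capitals. MIR5087 had a region in all 10 lists, MIR148A in 5 LOVO and 3 RKO lists, MIR587 in the 5 LOVO lists, MIR583 in 4 RKO lists and MIR29A in 3 RKO lists. No 2 of these 5 share a seed.
hsa-miR-5087: gGGUUUGUagcuuugcuggcaug
hsa-miR-148a-3p: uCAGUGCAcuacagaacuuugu
hsa-miR-587: uUUCCAUAggugaugagucac
hsa-miR-583: cAAAGAGGaaggucccauuac
hsa-miR-29a-3p: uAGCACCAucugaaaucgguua

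The share of a list that lay in deserts was highest in shMETTL3 cells given olaparib and lowest in untreated shMETTL3 cells, in both lines. In LOVO, desert intervals made up 15.6% (15.2 to 15.9, exact 95% Clopper-Pearson interval, which covers counting error only) of the list of shMETTL3 with olaparib, 13.0% (12.7 to 13.4) of shControl with olaparib, and 11.99% (11.5 to 12.5) of untreated shMETTL3. The scored and merged lists of untreated LOVO shControl held 13.4% (13.1 to 13.8) and 14.8% (14.4 to 15.2). In RKO the shares were 10.2% (9.91 to 10.6) in shMETTL3 with olaparib, 7.50% (7.18 to 7.83) in shControl with olaparib and 4.58% (4.10 to 5.11) in untreated shMETTL3, beside 7.08% (6.73 to 7.43) and 7.59% (7.28 to 7.91) in the scored and merged untreated shControl lists. In both lines the scored control list thus lay between the untreated shMETTL3 list and the merged control. The control pair differed by less than untreated shMETTL3 and the merged control did. Intervals within 1 kb of a gene end count in the whole of each share, and their part differed between lists. In untreated shMETTL3 they made up 36.2% of the LOVO list, against 27.0 and 26.0% of the scored and merged controls. The RKO values were 62.5%, against 43.8 and 37.1%. In shMETTL3 with olaparib they made up 23.7% in LOVO and 34.7% in RKO. Desert shares without them were not computed.

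**Figure D1:**
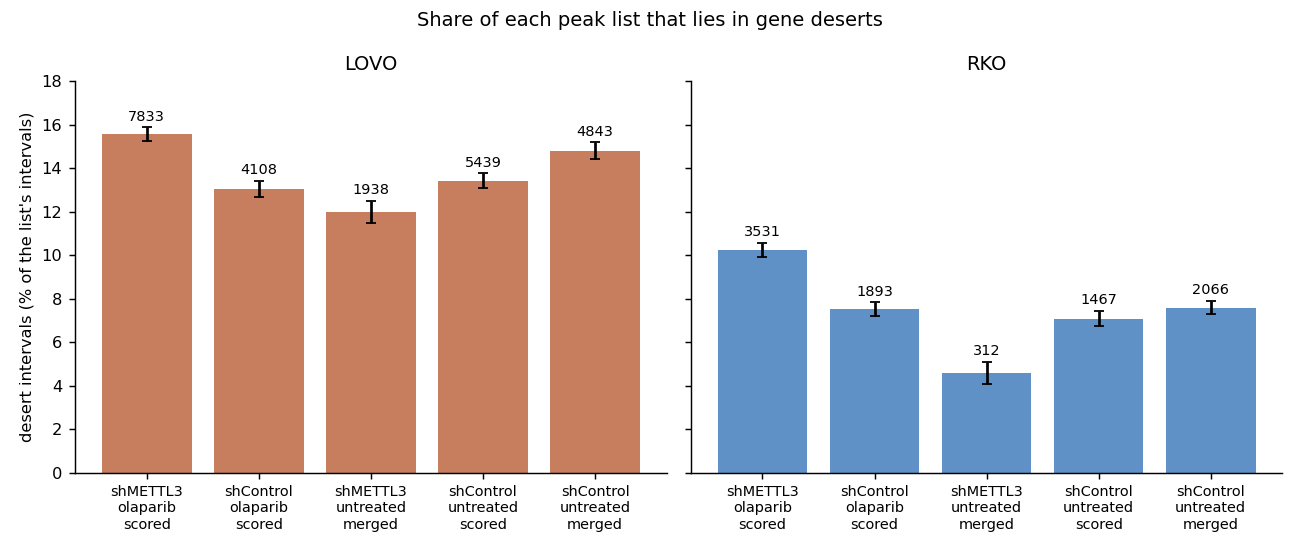
Bars give desert intervals as a percent of all autosomal intervals of each list, with exact 95% binomial intervals; the number of desert intervals stands above each bar. In both panels the bar of shMETTL3 with olaparib is the highest (15.6% in LOVO, 10.2% in RKO) and that of untreated shMETTL3 the lowest (11.99% and 4.58%).

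Deserts held the largest share in shMETTL3 with olaparib also at equal list length. With the scored lists limited to their 20729 highest scores, a setting added after the data were seen, deserts held 15.1% of the LOVO intervals in shMETTL3 with olaparib, 12.1% in shControl with olaparib and 12.9% in untreated shControl. The RKO shares were 10.98%, 7.95% and 7.08%. The lines differed in where in the score range desert intervals sat. Among the 10% of intervals with the highest scores, deserts held 13.9, 10.9 and 11.7% in the 3 LOVO lists (shMETTL3 with olaparib, shControl with olaparib, untreated shControl) and 13.4, 12.1 and 10.8% in the 3 RKO lists. Among the 10% with the lowest scores they held 14.2, 14.5 and 13.1% in LOVO and 6.26, 4.84 and 5.35% in RKO. LOVO and RKO were thus close at the top of the score range and far apart at the bottom of it.

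Desert intervals were narrower than the others of their list. Median widths were 231 bp in deserts and 280 bp in the rest of the list for LOVO shMETTL3 with olaparib, and 464 and 599 bp in the merged LOVO shControl list. In RKO they were 204 and 289 bp in shMETTL3 with olaparib, and 287 and 451 bp in the merged shControl list. Density was lower at greater distance. In the merged LOVO shControl list there were 122.7 intervals per Mb up to 1 kb from a gene end, 7.17 between 100 and 200 kb, 2.16 between 500 kb and 1 Mb and 0.470 beyond 1 Mb. The merged RKO list had 145.7, 3.35, 0.764 and 0.186 per Mb in the same classes, so that it had more intervals than LOVO at gene ends and fewer in every desert class.

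Most desert regions belonged to 1 line. LOVO lists alone held 7158 regions and RKO lists alone 2620, and 1688 regions (14.7%) were found in both lines, which is 19.1% of the LOVO regions and 39.2% of the RKO regions. Joined in the same way, the rest of the lists gave 58975 regions with 34.9% in both lines, and the rest more than 1 kb from a gene end 46724 with 24.8%. Regions of LOVO lists alone made up 62.4% in deserts, against 41.5% of the whole rest and 48.7% of the rest away from gene ends. All 10 lists held 93 regions (0.811%), all 5 LOVO lists and no RKO list held 1217, and all 5 RKO lists and no LOVO list held 69. A single list held 4317 regions (37.7%), of which 1949 came from LOVO shMETTL3 with olaparib and 1095 from RKO shMETTL3 with olaparib. Regions of 1 list had a median width of 175 bp and those of all 10 lists 750 bp. LOVO had more regions than RKO on 19 of the 22 chromosomes; the exceptions were chromosome 8 (445 regions in LOVO and 462 in RKO), chromosome 19 (16 and 31) and chromosome 22 (74 and 82).

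**Figure D2:**
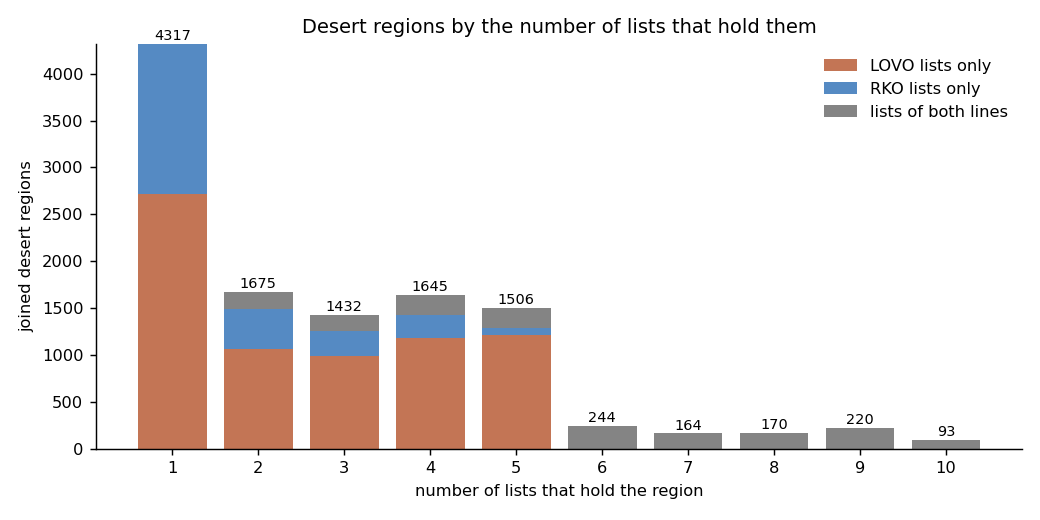
Each bar counts the joined desert regions held by a given number of the 10 lists, split by the line of those lists. Regions of 1 list form the tallest bar (4317), those of LOVO lists alone fill most of the bars up to 5 lists, and 93 regions are held by all 10.

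With shMETTL3 in untreated cells, most desert intervals of the full control list were lost in both lines, but the share lost depended on list length. With the control list limited to its widest intervals, as many as the shMETTL3 list holds, 60.5% (57.9 to 62.9) of 1502 desert intervals were kept in LOVO and 47.5% (37.3 to 57.8) of 99 in RKO. In the full LOVO lists, shMETTL3 had 1938 desert intervals and the merged shControl list 4843, and 2985 of the control intervals had no shMETTL3 partner (background over the whole list: 52.2%). The share kept was 38.4% (37.0 to 39.8) in deserts and 49.5% in the rest of the list. In RKO the shMETTL3 list had 312 desert intervals and the merged shControl list 2066, and 1800 were lost (background 76.6%). Here 12.9% (11.5 to 14.4) were kept in deserts and 24.2% in the rest. The scored control list, set against the merged one in the same way, lacked 935 of the 4843 LOVO desert intervals (background 12.3%) and 990 of the 2066 RKO desert intervals (background 36.6%), so the losses with shMETTL3 over full lists were larger than the difference between controls.

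Width went along with these losses. Lost desert intervals had a median width of 393 bp in LOVO and 276 bp in RKO, and kept ones 570 and 455 bp. Control intervals were put in 5 classes of width with equal numbers. In the narrowest class of LOVO, 13.6% were kept in deserts and 13.1% in the rest, and in the widest class the shares were 67.7% and 75.1%. The RKO shares were 4.36% and 2.65% in the narrowest class, and 51.5% and 55.1% in the widest. Over all control intervals, the kept share in deserts minus that in the rest was -11.1 percentage points in LOVO and -11.4 in RKO. Matched on the 5 classes of width, the difference was -1.02 points in LOVO and 1.90 points in RKO, so that its direction in RKO reversed. Of the intervals of the rest more than 1 kb from a gene end, 41.6% were kept in LOVO and 13.5% in RKO, and the differences from these were -3.22 and -0.614 points. At the threshold itself, 38.1% of the LOVO control intervals just beyond it (100 to 110 kb) and 42.9% of those just short of it (90 to 100 kb) were kept, and in RKO 12.4% and 13.9%.

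Few desert intervals were found with shMETTL3 alone, namely 75 of 1938 in LOVO (3.87%, background 2.72%) and 45 of 312 in RKO (14.4%, background 4.21%). Between the control lists, 1392 of 5439 LOVO intervals of the scored list had no partner in the merged one (25.6%, background 24%), and 377 of 1467 in RKO (25.7%, background 11.4%). Of 716 desert regions open in the merged control of both lines, 339 were lost in LOVO, 561 in RKO and 284 (39.7%) in both, while 100 were kept in both. For the rest of the lists, 32.0% of 13675 such regions were lost in both, and 45.9% of the 6473 more than 1 kb from a gene end, so the desert share lay between these. Of the lost desert intervals, the list of shMETTL3 with olaparib held 79.6% in LOVO (2376 of 2985) and 69.2% in RKO (1245 of 1800), against 84.9% and 75.5% of the lost intervals of the rest. The list of shControl with olaparib held 52.4% and 56.3% of them, and the scored untreated shControl list 70.6% and 46.4%.

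**Figure D3:**
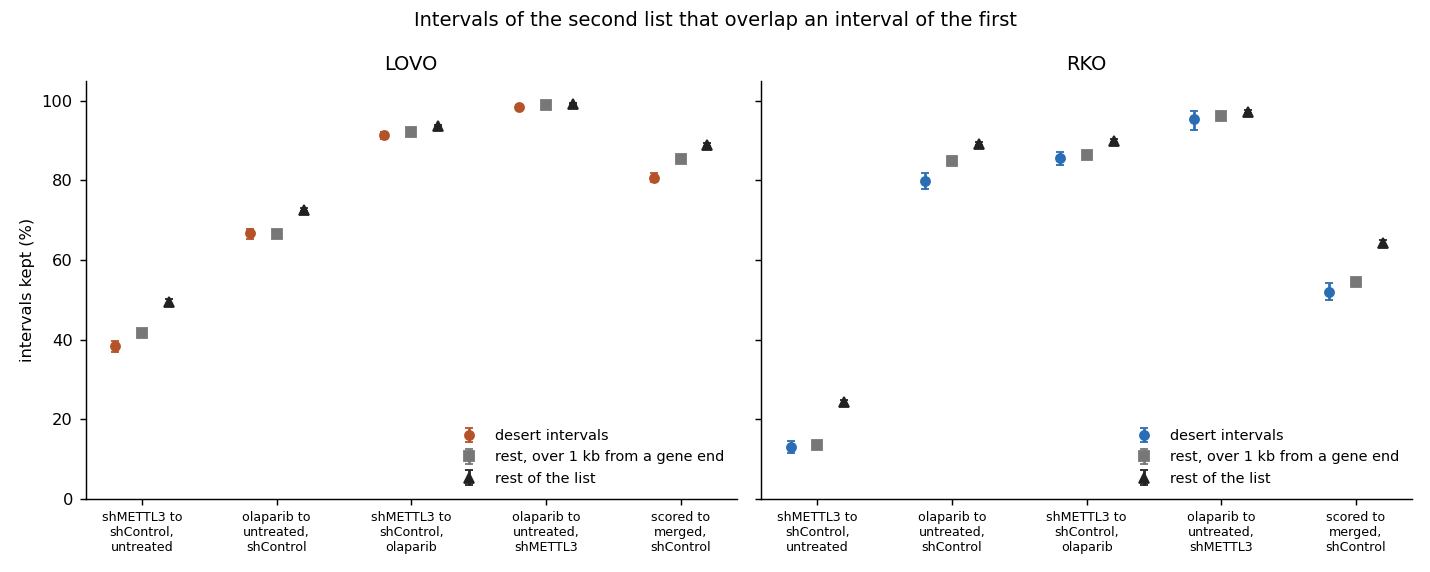
Points give the percent of intervals of the second-named list that overlap the first-named list by at least 1 bp, with exact 95% binomial intervals, for desert intervals, for the rest of the list more than 1 kb from a gene end, and for all of the rest. Desert intervals lie below the whole rest in all 5 comparisons of each line (38.4 and 49.5% for untreated shMETTL3 in LOVO, 12.9 and 24.2% in RKO) and closer to the rest away from gene ends (41.6 and 13.5%).

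Set against the scored untreated list, shControl cells with olaparib had fewer desert intervals in LOVO and more in RKO. The rest of the list went the same way. The olaparib number over the untreated one was 0.755 in deserts and 0.780 in the rest in LOVO, and 1.29 and 1.21 in RKO. In LOVO the olaparib list had 4108 and the scored untreated list 5439. Of the untreated intervals, 66.7% (65.4 to 67.9) were kept in deserts and 72.7% in the rest of the list, or 66.6% of the rest away from gene ends, with 1813 lost (background 28.1%) and 521 of the olaparib intervals gained (12.7%, background 9.13%). In RKO the olaparib list had 1893 and the untreated list 1467, 80.0% (77.8 to 82.0) of the untreated intervals were kept in deserts and 89.3% in the rest, 294 were lost (background 11.4%) and 727 gained (38.4%, background 29%). Set against the merged untreated list instead, olaparib had fewer desert intervals in both lines, at 0.848 times the untreated number in LOVO and 0.916 times in RKO. Of 654 desert regions open in the scored control of both lines, 30 (4.59%) were lost in both. The share was 1.89% in the rest of the lists, and 3.74% in the rest more than 1 kb from a gene end. Of 5375 desert regions open in neither control, 20 (0.372%) were gained in both, against 0.816% in the rest. For the rest more than 1 kb from a gene end the gained share was 0.637%.

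Under olaparib the desert intervals of shMETTL3 cells came to 1.91 times those of shControl cells in LOVO, and in RKO to 1.87 times. For the rest of the list the ratios were 1.55 and 1.33. The rest differed by distance from a gene end. Up to 1 kb, shMETTL3 and shControl had 11943 and 9698 intervals in LOVO and 11984 and 10193 in RKO. From 10 to 100 kb they had 20820 and 11987 in LOVO and 11105 and 7462 in RKO. Of the desert intervals of shMETTL3 with olaparib, 4027 of 7833 in LOVO were gained (51.4%, 50.3 to 52.5, background 40.4%), against 38.4% in the rest of the list. In RKO 1903 of 3531 were gained (53.9%, 52.2 to 55.5, background 32.8%), against 30.4% in the rest. These gained shares were not matched on width, nor computed for the rest away from gene ends. Gained desert intervals were narrower than those with a partner, at 175 and 320 bp in LOVO and 170 and 262 bp in RKO, and had lower median scores, at 7.26 and 11.5 in LOVO and 7.34 and 10.8 in RKO. The shControl desert intervals were mostly kept: 91.3% (90.4 to 92.2) had a partner in LOVO, with 356 lost (background 6.59%), and RKO kept 85.6% (83.9 to 87.1), with 273 lost (background 10.4%). Of 6153 regions open in neither olaparib control, 3574 (58.1%) were gained in LOVO, 1679 (27.3%) in RKO and 287 (4.66%) in both. The shares for the rest of the lists were 50.9%, 29.8% and 5.58%, and in both sets the regions were counted only because some list holds them.

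Olaparib in shMETTL3 cells could be set only against a merged untreated list, so that the form of the lists differs along with the treatment. The olaparib list kept 98.5% (97.8 to 99.0) of the untreated desert intervals in LOVO, with 30 lost (background 0.786%), and 95.5% (92.6 to 97.5) in RKO, with 14 lost (background 2.75%). Of its own desert intervals, 5889 (75.2%, background 66.8%) in LOVO and 3232 (91.5%, background 81%) in RKO had no partner in the untreated list.

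Desert regions were spread over most stretches of desert DNA, unevenly. A stretch is an uninterrupted run of DNA whose every base is more than 100 kb from a gene end. There were 2805 of them, 1278 inside genes and 1527 between genes, and 728 had no region. The 10% of stretches with the most regions held 43.8% of the regions; length was not matched. Density was 13.7 regions per Mb in stretches inside genes and 8.47 in stretches between genes.

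The fullest stretch lay inside RAD51B, a long gene with a role in homologous recombination, at chr14:67919780-68583095 (hg38), with 61 regions. The LOVO lists held 51 intervals in shMETTL3 with olaparib, 40 in shControl with olaparib, 16 in untreated shMETTL3, and 44 and 35 in the scored and merged untreated shControl lists. The RKO lists held 15, 9, 1, 8 and 9 in the same order. The untreated shMETTL3 list was the lowest in both lines and shMETTL3 with olaparib the highest. By the smaller difference of the lines, in number of intervals, RAD51B was also the gene with the largest deficit of desert intervals in shMETTL3. It was also the gene with the most desert regions. Its 16 LOVO intervals against 35 in the merged control were a larger part than the 0.400 over all genes. In RKO, 1 against 9 was a smaller part than the 0.151 over all genes.

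Among stretches of at least 150 kb the densest, with 256 regions per Mb, ran from KLF14, a zinc finger transcription factor gene, to MKLN1, the gene of muskelin, at chr7:130834208-131010093 (hg38). LINC00513, MIR29A and MIR29B1 are annotated within it, and the promoter of LINC-PINT printed here lies in it. Of its 45 regions 13 were held by both lines, 13 by LOVO alone and 19 by RKO alone. The LOVO lists had 24, 19, 10, 20 and 13 intervals there (shMETTL3 with olaparib, shControl with olaparib, untreated shMETTL3, scored and merged untreated shControl) and the RKO lists 28, 19, 4, 16 and 14. Without the lowest 25% of scores of each scored list, the 45 regions became 22.

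**Figure D4:**
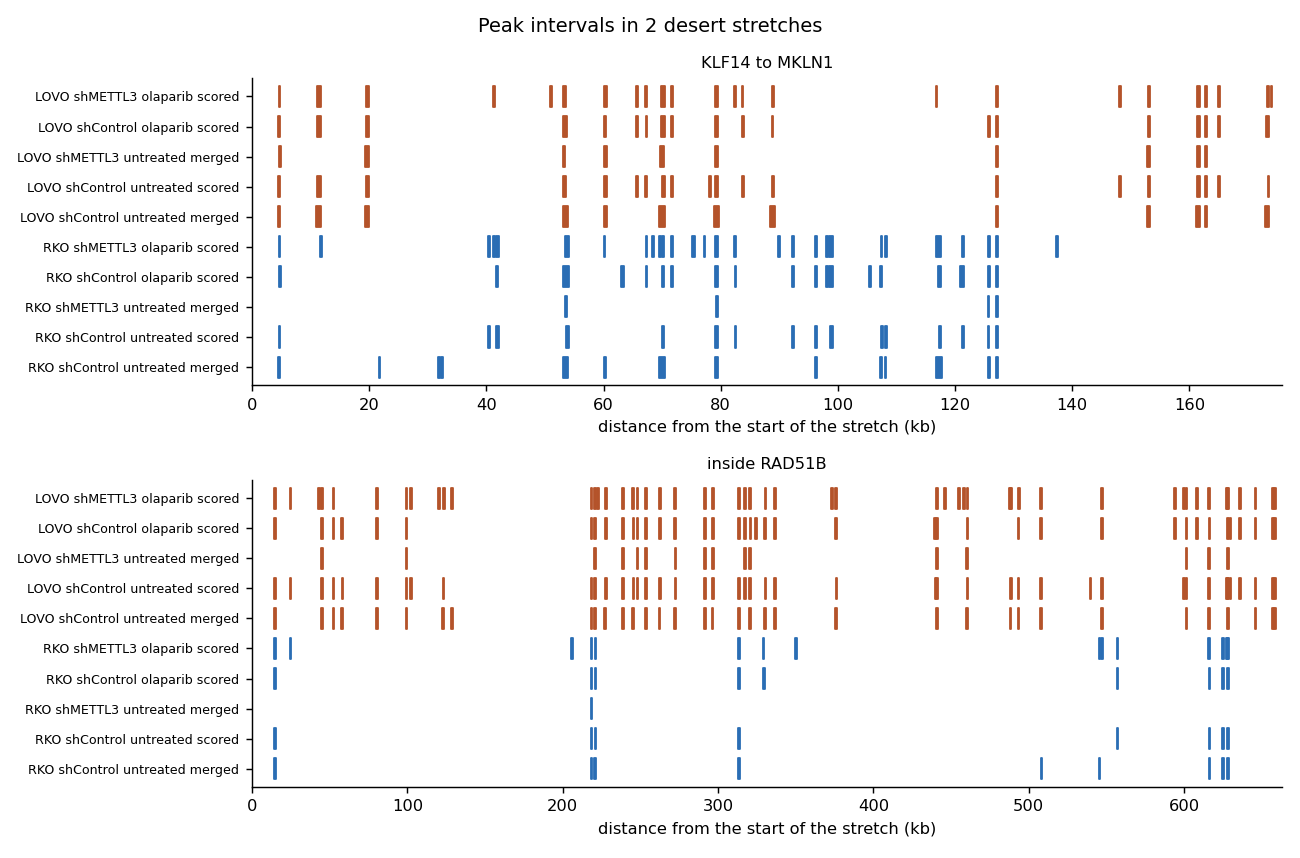
Each row is a peak list and each mark an interval, placed by its distance in kb from the start of the stretch (marks are drawn at no less than 1 part in 600 of the axis). Between KLF14 and MKLN1 the LOVO and RKO rows share some places and differ at others (13 regions shared); inside RAD51B the LOVO rows hold 16 to 51 intervals and the RKO rows 1 to 15.

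The next 3 stretches were open mainly in LOVO, as were desert regions at large (77.1% of them in LOVO lists, 37.6% in RKO lists). PDE4D, which encodes a cyclic AMP phosphodiesterase, held 44 regions inside the gene, of which LOVO lists held 39 and RKO lists 9. The desert between ZEB2, a repressor of epithelial genes, and ACVR2A, an activin receptor gene, held 43, with 42 in LOVO and 4 in RKO. The desert between KLF4, a transcription factor gene of the differentiated gut epithelium, and the actin-like gene ACTL7B held 43, with 38 in LOVO and 12 in RKO.

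The stretch from MYC to GSDMC ran the other way, as KLF14 to MKLN1 did to a lesser extent. This desert beside the MYC oncogene held 42 regions, 17 in LOVO lists and 34 in RKO lists. The RKO lists had 31 intervals in shMETTL3 with olaparib, 19 in shControl with olaparib, 8 in untreated shMETTL3, and 15 and 20 in the scored and merged untreated shControl lists. The LOVO lists had 17, 11, 4, 13 and 10. The desert between IGFBP3, the gene of a binding protein for insulin-like growth factors, and TNS3, a focal adhesion gene, was nearly limited to LOVO, with 41 regions in LOVO lists and 2 in RKO lists. The desert between TBX3, a T-box transcription factor gene, and MED13L, a Mediator subunit gene, had 40 in LOVO and 9 in RKO, of 41 in all.

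**Figure D5:**
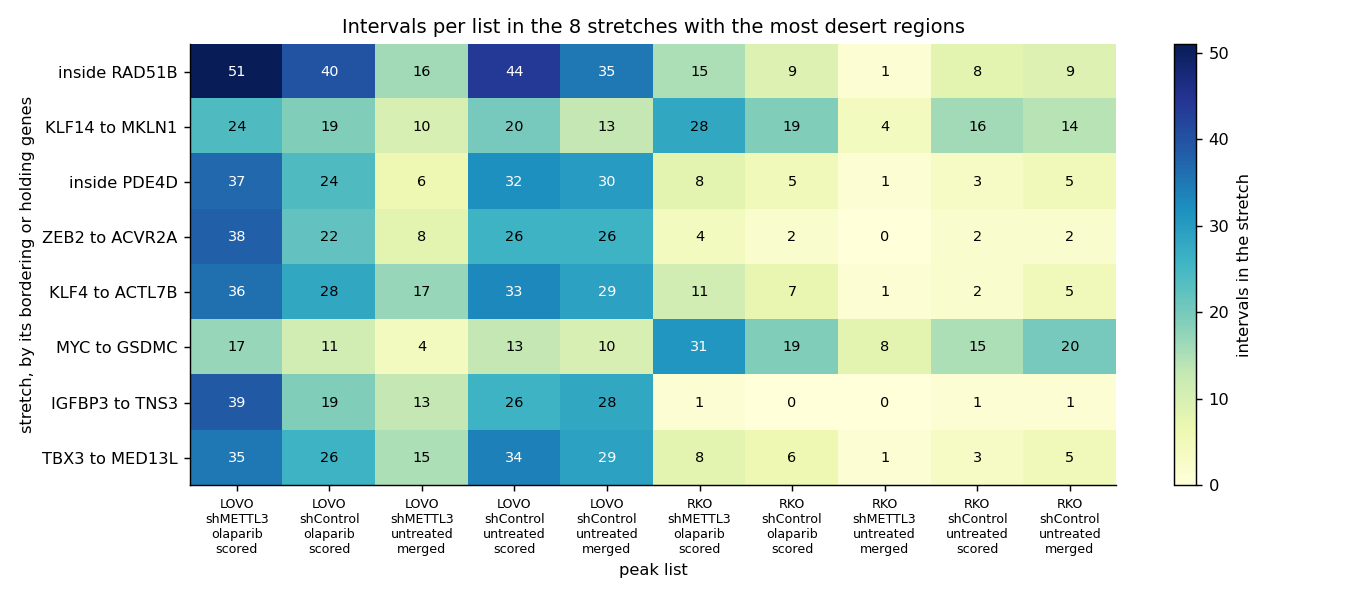
Cells give the number of intervals of each list whose centre lies in each of the 8 stretches with the most desert regions. Untreated shMETTL3 has the lowest count of its line in every stretch, tied at 0 in RKO with shControl with olaparib between IGFBP3 and TNS3, and KLF14 to MKLN1 (26 regions in LOVO, 32 in RKO) and MYC to GSDMC (17 and 34) are the 2 with more regions in RKO.

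Of 277 stretches longer than 1 Mb, 10 held no region in any list. The longest were 18331.5 kb on chromosome 14, 17758.9 kb on chromosome 9 and 15557.8 kb on chromosome 15. Also among the 10 were the 1543 kb between NEGR1 and LRRIQ3 on chromosome 1 and the 1203 kb between SYT4 and SETBP1 on chromosome 18. All 10 count in the length of desert DNA behind the densities per Mb. Whether they hold unsequenced gaps of the assembly, and how well reads map in them, was not checked. FHIT, the gene at a common fragile site, held 1 region in a stretch of 1304 kb, found in 1 LOVO list and 4 RKO lists. No region means that no list called one there, not that the DNA was closed.

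The regions that all 10 lists held at the greatest distance from a gene end were on chromosomes 14, 13, 17 and 5. The farthest, at chr14:106872590 (hg38, start), lay 1343 kb from TMEM121 in the immunoglobulin heavy chain locus, whose segments do not count as protein-coding genes in the rule. The next lay on chromosome 13, 894 kb from DAOA and 817 kb from SLC10A2, and on chromosome 17, 817 kb from KCNJ18. The nearest of the 5, at chr5:18698268, was 773 kb from the cadherin gene CDH18, and its intervals were 493, 452, 503, 396 and 538 bp wide in LOVO and 486, 342, 214, 441 and 505 bp in RKO (shMETTL3 with olaparib, shControl with olaparib, untreated shMETTL3, scored and merged untreated shControl). In RKO the untreated shMETTL3 interval was thus the narrowest.

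The highest score of all 6 scored lists, deserts and rest alike, sat at 1 desert place, chr20:14609938 (hg38, start), inside MACROD2, a gene for a hydrolase of ADP-ribose. Its scores in LOVO were 51.1 in shMETTL3 with olaparib, 46.0 in shControl with olaparib and 50.7 in untreated shControl, and in RKO 47.9, 45.3 and 45.2. All 10 intervals began at the same base, and their widths of 228 to 239 bp did not follow the groups. The next highest desert score of each scored list lay at chr17:22521207, near the centromere, where scores ran from 29.8 to 47.1 and ranked 2 or 3 of the whole list. No mappability filter was applied here, and whether reads map uniquely at either place was not checked.

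The widest desert intervals lay at other places. The widest of LOVO were 1495 bp near EMP1 in shMETTL3 with olaparib, 1298 bp near PPIAL4G in shControl with olaparib, 1253 bp in RAD51B in untreated shMETTL3, and 1325 bp near VCPKMT and 2270 bp in RBPJ in the scored and merged untreated shControl lists. Those of RKO were 1340 bp in PTPRN2 in shMETTL3 with olaparib and 1400 bp, 1411 kb from UQCRFS1, in shControl with olaparib. Untreated RKO shMETTL3 had 727 bp in AKAP6. The scored and merged untreated RKO shControl lists had 1243 bp in PTPRN2 and 1536 bp in CLASP1.

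Non-coding genes, which the rule did not use, were found at 651 of the regions (5.68%), counted when an annotated end lay within 1 kb. The share was 4.17% for regions of 1 list and 22.6% for those of all 10 lists. Of 5398 lncRNA genes with an end in desert DNA, 563 (10.4%) had a region within 1 kb; by ends, 6.17% did, against 2.82% at places moved by 20 kb. Of 60 transfer RNA genes, 22 did, or 36.7% of their ends, against 3.75% at moved places. Of 12 ribosomal RNA genes 8 did, or 50% of their ends, against 20.8% at moved places, and of 18 small nuclear RNA genes 3, with 16.7 and 5.56% of ends. The excess was smaller for the 269 microRNA genes, of which 18 did (6.69 and 4.18% of ends), and the shares were close for the 185 small nucleolar RNA genes, of which 6 did (3.24 and 3.11%). Ribosomal and transfer RNA genes have near-identical copies, so reads there may belong to another copy. The first 10 genes at regions of all 10 lists, in order of chromosome and start, were LINC02777, LOC102723480, LOC124904404, MIR5087, LOC124904402, LOC107984043, CLASP1-AS1, RNU4ATAC, SRGAP3-AS4 and LINC02018. RNU4ATAC is the small nuclear RNA of the minor spliceosome and lies within CLASP1.

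Desert intervals at non-coding ends were kept more often than others when untreated shMETTL3 was set against shControl. The shares were 47.2% (41.5 to 52.8) of 316 intervals at such ends and 37.8% (36.3 to 39.2) elsewhere in LOVO, and 23% (17.4 to 29.5) of 200 and 11.8% (10.4 to 13.3) in RKO. Intervals at non-coding ends were wider, with medians of 528.5 and 458 bp in LOVO and 379 and 282 bp in RKO. Within classes of width the difference was 2.31 points in LOVO and 4.95 points in RKO. Between the control lists the same shares were 88.3 and 80.2% in LOVO and 62.5 and 51.0% in RKO. Within classes of width the difference between these was 3.37 points in LOVO and 2.54 points in RKO. The higher kept share at non-coding ends was thus also seen between controls, and in LOVO with a larger matched difference.

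Of 3383 lncRNA promoters in desert DNA, 202 (5.97%) overlapped a desert region, against 0.857% when moved by 20 kb. In LOVO 137 were open in shMETTL3 with olaparib, 102 in shControl with olaparib, 69 in untreated shMETTL3, and 118 and 133 in the scored and merged untreated shControl lists. In RKO the numbers were 83, 71, 23, 60 and 79. The 14 promoters held by all 10 lists had a median of 16.5 CpG dinucleotides in 300 bases, the 202 with any region 5 and the 3181 without one 2, while 14 was the median of all 35116 listed promoters.

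The AP-1 site TGANTCA, the binding sequence of FOS and JUN proteins, was present in 29.7% of the 202 desert promoters with a region, in 12.5% of those without and in 7.71% of all promoters. The GC box, bound by SP1, was present in 24.3, 7.86 and 45.0% of the same sets, the ETS core in 12.4, 4.50 and 17.2%, and CCAAT in 37.6, 39.2 and 34.6%. The CRE was in 1.49, 0.346 and 1.85% and the CACGTG box in 4.46, 3.11 and 7.26%. Desert promoters with a region thus held the AP-1 letters more often than either other set. They held the GC box and ETS core more often than desert promoters with no region, but less often than promoters at large. The promoters of MANCR and LINC00460 printed here each hold 2 AP-1 matches, and that of MIR4458HG holds none. These are matches of letters and do not show binding.

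Genes were counted by the desert regions they hold or lie nearest to. Of 3501 genes that border or hold a stretch, 2368 (67.6%) had a region, with a median of 2. All 40 fragile site and long genes had one, with a median of 9.5 regions, as did 35 of 38 neuronal adhesion and channel genes (median 4.5), 55 of 62 developmental transcription factor genes (median 5) and 22 of 26 genes of secreted signals and receptors (median 6). The lists hold long genes and genes beside long deserts, and length was not matched.

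With shMETTL3 in untreated cells, 38 of the 62 developmental transcription factor genes had fewer desert intervals in LOVO and 30 in RKO, beside 1298 (37.1%) and 1069 (30.5%) of all 3501 genes. The fragile site and long genes had 29 of 40 with fewer in each line, the secreted signals and receptors 18 and 10 of 26, and the neuronal genes 24 and 21 of 38. More intervals with shMETTL3 were found at 1 developmental gene in LOVO and 0 in RKO, beside 0.657% and 0.6% of all genes, and at 1 or 0 genes of each other list in each line. Summed over each list, the intervals came to 0.432, 0.431, 0.390 and 0.393 times the control number in LOVO for developmental, fragile site, signal and neuronal genes, beside 0.400 over all genes. In RKO they came to 0.123, 0.182, 0.111 and 0.139 times, beside 0.151. The lists thus lay near the ratio of all genes. Under olaparib, 48 and 35 of the developmental genes had more intervals with shMETTL3 in LOVO and RKO, beside 1595 (45.6%) and 1055 (30.1%) of all genes. Fewer were found at 2 in each line, beside 1.69% and 3.51% of all genes. The fragile site and long genes had 34 and 28 of 40 with more, the signals and receptors 18 and 16 of 26, and the neuronal genes 29 and 19 of 38. Listed genes had higher median numbers of regions than all genes, which was not matched. Summed LOVO intervals with shMETTL3 and shControl were 428 and 239 (developmental), 369 and 204 (fragile site), 126 and 63 (signal) and 202 and 91 (neuronal). Over all genes they were 7812 and 4096. The RKO sums were 130 and 67, 137 and 64, 46 and 18, and 57 and 24, beside 3513 and 1883.

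Among developmental transcription factor genes, SOX9, a regulator of intestinal stem and Paneth cells, had 28 desert regions. The LOVO lists held 26 intervals in shMETTL3 with olaparib, 14 in shControl with olaparib, 9 in untreated shMETTL3, and 17 and 18 in the scored and merged untreated shControl lists, and the RKO lists 3, 1, 0, 0 and 2. MYC had 38 regions, GATA3, a transcription factor gene best known in T cells and breast epithelium, 26, and KLF12 25. Like SOX9, GATA3 was open mainly in LOVO, with 16, 13, 9, 20 and 20 intervals in the LOVO lists in that order and 2 in RKO, both in shMETTL3 with olaparib.

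Among signals and receptors, the axon guidance gene SEMA3A had 23 regions, BMP2 19, the axon guidance receptor gene ROBO2 18 and BMP7 12. BMP2, a ligand of bone morphogenetic protein signalling, had 14 intervals in shMETTL3 with olaparib, 8 in shControl with olaparib, 3 in untreated shMETTL3, and 9 and 4 in the scored and merged untreated shControl lists of LOVO, where the control pair alone spans 9 to 4. Among long genes, RAD51B and PDE4D were followed by AUTS2 with 36 regions and TBL1XR1 with 35. Among neuronal genes, the cadherin genes CDH9 and CDH18 had 27 and 20 regions, the teneurin gene TENM4 24 and the neurexin gene NRXN3 21. CDH9 had 22, 12, 8, 18 and 16 intervals in the LOVO lists and 1 in RKO, in shMETTL3 with olaparib.

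Genes were ordered by the difference in number of intervals in whichever line changed less, and ties by symbol. A gene with many intervals can thus come first without a larger relative change. Those with the largest deficit of desert intervals in untreated shMETTL3 cells were RAD51B, NAV3, SEMA3A, TMEM121 and HAS2. NAV3, a neuron navigator gene, had 3 intervals with shMETTL3 and 11 with shControl in LOVO, and 1 and 7 in RKO. SEMA3A had 4 and 11 in LOVO and 1 and 7 in RKO, and HAS2, a hyaluronan synthase gene, 5 and 14 in LOVO and 1 and 6 in RKO. TMEM121, the gene nearest to the immunoglobulin heavy chain locus, had 4 and 10 in LOVO and 2 and 9 in RKO. In RKO the scored control list had 3 intervals for NAV3, 3 for SEMA3A and 4 for TMEM121, below the merged one. HAS2 tied with MYC, PRSS1 and ZFHX3, each with a smaller difference of 5 intervals.

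Under olaparib, the genes with the largest excess of intervals in shMETTL3 were MYC, TMEM121, UQCRFS1, LOC102723475 and CNTNAP2, the last tied with HAS2, RAD51B and TENM3 at a smaller difference of 6. MYC had 20 intervals with shMETTL3 and 12 with shControl in LOVO, and 24 and 16 in RKO. Over all desert intervals the shMETTL3 number was 1.91 times the shControl number in LOVO and 1.87 times in RKO. Relative to its own shControl number, MYC rose by less than that in both lines. TMEM121, UQCRFS1, LOC102723475 and CNTNAP2 rose by more. CNTNAP2, a neurexin family gene at a fragile site, had 16 and 5 in LOVO and 9 and 3 in RKO. UQCRFS1, the gene of the Rieske subunit of respiratory complex III, had 9 and 1 in LOVO and 16 and 3 in RKO, and LOC102723475 20 and 4 in LOVO and 11 and 4 in RKO. For UQCRFS1 the 2 untreated control lists had 2 and 2 intervals in LOVO and 2 and 4 in RKO. UQCRFS1 stands here for the nearest gene end only. The widest desert interval of RKO shControl with olaparib, counted for it, lay 1411 kb away.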

How the data were processed

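ATAC-seq peak lists of 4 groups in each of 2 lines were used. The authors deposited 10 lists: interval positions on hg38 in 4 merged lists, and positions with a score per interval, whose meaning is not stated, in 6 scored lists. Per the submitters' processing notes, the tools included DiffBind 3.0.15, MACS2 2.2.7.1, Bowtie2 2.4.2 and Trim Galore 0.6.6. The sources used here do not give read shifting, filtering or pooling, nor the untreated shControl list that holds the second batch. Unmapped value columns numbered 0.

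Distances run from an interval's centre to the nearest end of 19126 autosomal protein-coding genes (RefSeq table, GRCh38.p14, the assembly of hg38; no strand, exons or UTRs). Kept means an overlap of at least 1 bp. Lists of the same form were compared where they exist. Python 3.11.15, pandas 2.3.3 and scipy 1.17.1 were used; overlaps were checked against bedtools 2.31.1 and tested on simulated data. Widths and scores were grouped in 5 classes of equal number. No sequence of the regions themselves was read, since no genome was used.

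The members and gene lists were chosen with earlier results of these data known. Text names the 8 fullest stretches, the 5 farthest regions of all 10 lists, the widest interval of each list and the highest score of each scored list, the first 10 non-coding genes at regions held by most lists, the 4 members with most regions of each gene list, and the 5 genes with the largest deficit with shMETTL3 and the 5 with the largest excess under olaparib. The second highest scores, printed promoters and microRNAs, empty stretches and receptor loci were chosen after their values were seen. Intervals cover counting error only, and p-values were not computed, since no group has replicate lists of the same form. Density was ranked among stretches of at least 150 kb.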

Additional observations from a re-analysis of the deposited data

Results flagged for a closer look

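The median score of desert intervals stood below that of the rest of the list in every scored LOVO list and above it in every scored RKO list, and the opposite directions were not tested. The difference, desert minus rest, was -0.178 in LOVO shMETTL3 with olaparib, -0.510 in LOVO shControl with olaparib and -0.219 in LOVO untreated shControl. It was 0.433, 0.769 and 0.562 in the same RKO lists. The number of desert intervals with olaparib was set over that of the scored untreated shControl list. The ratio was 0.755 in LOVO and 1.29 in RKO, again in opposite directions and untested. For the rest of the list the ratios were 0.780 and 1.21, in the same directions as in deserts. With the merged untreated list the desert ratios were 0.848 and 0.916, so the direction in RKO depends on which control list is used.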

How the results depend on the processing

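No paired analysis was possible because each list is named for a group and no group has lists of several replicates of the same form; leaving out a replicate was not possible either. Equal-number lists in the share by list, the windows of 500 bp and 2 kb, and the score limits for stretches and genes were chosen after seeing the data. The cause of the changes below was not tested. Of the alternatives to main values, 65 moved by more than the counting interval or the 1.5 times limit, 4 reversed the direction and 58 did neither.

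The kept share with shMETTL3 in untreated cells was 38.4% in LOVO and 12.9% in RKO. It became 31.3 and 6.87% when 50% of an interval had to be covered, 34.7 and 16.9% with the other control list, and 60.5 and 47.5% with lists of equal number. In LOVO it was 39.8% over 50 kb and 36.0% over 500 kb from a gene end, and in RKO 14.7% inside genes. The kept share with olaparib in shControl was 66.7% in LOVO, and 63.8% with 50% cover, 76.1% at equal number, 65.3% without the lowest 25% of scores and 63.8% over 500 kb. In RKO it was 80.0%, and 61.3% with the other control list, 75.2% at equal number, 75.8% over 200 kb and 69.4% over 500 kb. The share kept by shMETTL3 under olaparib was 91.3% in LOVO, and 86.8% with 50% cover, 75.8% at equal number, 93.0% without the lowest 25% of scores, 90.1% over 200 kb and 89.3% over 500 kb. In RKO it was 85.6%, and 81.8%, 75.6% and 81.4% with 50% cover, at equal number and over 500 kb. The share kept by olaparib in shMETTL3 was 98.5% in LOVO, and 93.9% with 50% cover, 72.2% at equal number, 96.4% without the lowest 25% of scores and 97.5% over 500 kb. In RKO it was 95.5%, and 61.5% at equal number, 91.0% without the lowest 25% of scores and 97.5% inside genes.

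The desert share, as the median of the lists, was 13.4% in LOVO and 7.50% in RKO. It was 24.9 and 14.6% over 50 kb, 5.95 and 2.996% over 200 kb, 1.37 and 0.618% over 500 kb, 8.86 and 4.80% outside genes, and 1.64 and 0.856% with genes of every type. The 11466 regions became 20161, 5386 and 1393 at over 50, 200 and 500 kb, 7634 outside genes and 1551 with genes of every type. The share in both lines, 14.7%, became 16.7, 12.9 and 11.3% at over 50, 200 and 500 kb and 12.6% with genes of every type.

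The kept share in deserts minus that in the rest depended on width and on gene ends. With shMETTL3 in untreated cells it was -11.1 points in LOVO, and -1.02 matched on width and -3.22 without intervals at gene ends; in RKO it was -11.4, and 1.90 and -0.614. With olaparib in shControl it was -6.02 in LOVO, and 0.419 and 0.0207, and -9.32 in RKO, and -3.11 and -5.02. With shMETTL3 under olaparib it was -2.38 in LOVO, and -0.300 and -0.783; in RKO it was -4.36, and 1.46, -6.25 matched on score and -0.826. The direction reversed with matched width in RKO for both hairpin comparisons, and in LOVO for olaparib in shControl, also without gene ends. Matched on score, where the control list has scores, it did not reverse. The score-matched difference was -5.09 in LOVO and -10.8 in RKO with olaparib in shControl. With shMETTL3 under olaparib it was -1.50 and -6.25.

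Stretches with a region made up 74.0%, and 70.4% without the lowest 25% of scores. LncRNA genes with a region made up 10.4%, and 9.24% without the lowest scores, 7.85% with a window of 500 bp and 14.7% with 2 kb. Genes that border or hold a stretch and have a region made up 67.6%, and 64.3% without the lowest scores. Depth per list is unknown, so a desert without a region may reflect too few reads.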

Other observations

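The immune receptor loci, whose gene segments are not counted as protein-coding genes, supplied desert regions in both lines. The immunoglobulin heavy chain locus on chromosome 14 held 29, of which 19 were found in LOVO and 17 in RKO. The T cell receptor beta locus on chromosome 7 held 23, with 11 in LOVO and 19 in RKO, and the alpha and delta locus on chromosome 14 held 23, with 19 in LOVO and 8 in RKO. The immunoglobulin lambda locus held 7, and the T cell receptor gamma locus 0.

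The regions at the greatest distance of all lay on the short arm of chromosome 22. The region at 10706356 to 10706565 (hg38), in 1 RKO list, lay 4822 kb from OR11H1, and the region starting at 11492558, in 4 RKO lists and no LOVO list, lay 4035 kb from it.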
